A study of Drosophila melanogaster with 3 samples.

Results

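The genes examined here are 10 Drosophila melanogaster genes of neurotransmitter synthesis and transport and of the synaptic vesicle cycle. They were named by symbol, and all 10 were found among 13945 protein-coding genes of the annotation. For transmitters they are ChAT, VAChT, VGlut, Gad1 and ple, and for vesicle release nSyb, Syt1, Syx1A, brp and cpx. The binding measured is that of D (Dichaete), a SoxB transcription factor, by chromatin immunoprecipitation with sequencing (ChIP-seq). The samples form 1 group of 3 biological replicates of whole embryos of mixed sex, 0 to 14 hours old, from a stable transgenic line that carries D with a C-terminal eGFP, precipitated with an antibody against GFP. There was no second condition, and the promoter that drives the transgene is not given in the sources used here.

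Chemical synapses work by packing a transmitter into vesicles and fusing these with the membrane of the nerve ending. ChAT makes acetylcholine, Gad1 makes GABA and ple, the tyrosine hydroxylase, makes the precursor of dopamine, while VAChT and VGlut load acetylcholine and glutamate into vesicles. nSyb on the vesicle and Syx1A on the membrane are SNARE proteins that drive fusion, Syt1 is its calcium sensor, cpx binds the SNARE complex, and brp builds the active zone where release takes place. Several of these genes, though not all, are known as markers of differentiated neurons. D is known from the early embryo and from the developing nervous system. A whole-embryo sample covers all cell types and all these hours, so fewer bound cells and weaker binding per cell cannot be told apart.

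A peak was assigned to a gene when its summit lay between 2 kb before the start and 2 kb after the end of the gene, a span called the territory. The main list held 5047 peaks, called IDR peaks below because the authors kept them by their irreproducible discovery rate. The authors' signal value, whose scale is not stated, ran from 188 to 4534 in this list, with a median of 310. Peaks are called higher or lower by this value. The list from the 3 replicates together, called the pooled list, and each replicate's own list held 30000 regions. These lists hold peaks and background regions, so a region below the IDR list need not be a binding site. Ranks are given for each replicate list because all are equally long, but the median signal value differed, at 28.2, 35.0 and 43.2 in replicates 1, 2 and 3. The same rank thus does not mean the same signal. The IDR peaks were the highest peaks of the pooled list. A peak was matched in a replicate when a summit of that list lay within 200 bp. Replicate 1 stood apart, since 56.5% of IDR peaks had a match in it, against 98.3% in replicate 2 and 97.9% in replicate 3. The depth of the libraries is unknown.

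Of the 10 genes, 5 had an IDR summit in their territory, where 30.4% of all protein-coding genes had one. These were ChAT, VAChT, Gad1, nSyb and Syx1A, while VGlut, ple, Syt1, brp and cpx had none. The territories were long, with a median of 18.0 kb against 6.17 kb for all genes, and longer territories hold summits more often. Of all genes with territories of 8 to 12 kb, 37.7% had an IDR summit, and 2 of the 3 members of that length did. The share was 49.5% at 12 to 20 kb, with 2 of 3 members, 61.3% at 20 to 40 kb, with 1 of 3, and 64.2% over 40 kb, where brp had none. ChAT and VAChT share 1 summit, so the 10 territories held 5 distinct IDR summits. Their signal values were 569, 294, 244, 197 and 190, and 4 of the 5 lay below the median of the IDR list. None lay within 500 bp of a start site of its own gene, a place where 15.3% of all genes had a summit.

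The members counted as bound changed with the rule. By gene body they were ChAT and Gad1, 2 of 10, against 11.8% of all genes. By nearest start site they were Gad1 and Syx1A, against 21.1%. With territories of 5 kb on each side ple joined the 5, against 43.7%. The highest IDR signal value then became 1784 at Syx1A, from a peak 3391 bp outside the gene and 182 bp from a start site of CG18428, and exceeded the 569 of ChAT and VAChT. That of Gad1 became 357, from a peak 3484 bp outside the gene. With only the upper 50% of IDR peaks ChAT and VAChT remained, against 19.5%. In this set and in the recovery sets that follow, both were counted through the 1 summit they share. The same pair was left by peaks recovered in all 3 replicates, against 11.3%, by recovery in replicates 1 and 3, against 11.9%, and by recovery in replicates 1 and 2, against 12.1%. A peak counted as recovered in a replicate where its match was among the 5047 highest regions. Recovery in replicates 2 and 3 gave ChAT, VAChT and Syx1A, against 24.8%. ChAT alone held more than 1 IDR summit, where 10.4% of all genes did.

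**Figure D1:**
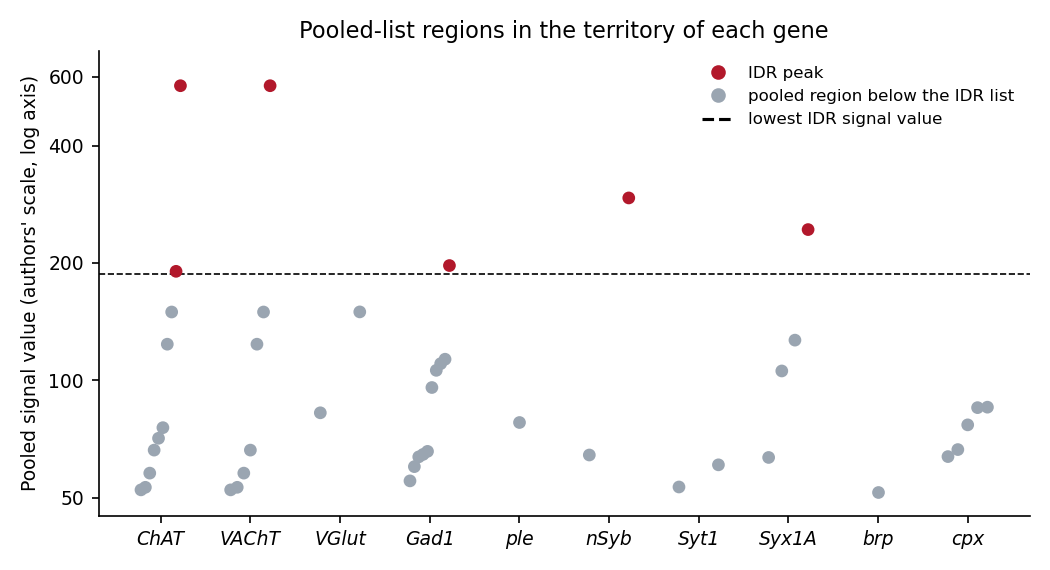
Signal value in the pooled list (log axis, authors' scale) of every pooled-list region in the territory of each of the 10 genes; red points are IDR peaks, grey points lie below the IDR list, and the dashed line is the lowest IDR signal value, 188. The shared peak of ChAT and VAChT at 569 stands highest, and the IDR peak of Gad1 and the lower one of ChAT lie just above the line.

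The highest peak within the territories of 2 kb on each side lay at the cholinergic locus. ChAT (FBgn0000303, chromosome arm 3R, 18705501 to 18732344, plus strand, dm6) and VAChT (FBgn0270928, 3R, 18705501 to 18718916) share their start site, and VAChT lies nested in the first intron of ChAT, an arrangement known in other animals as well. The summit lay at 18719944, in the first of 7 introns of ChAT, 14443 bp from the shared start and 1028 bp beyond the end of VAChT. Its pooled signal value of 569 ranked 978. The replicate signal values were 94.1, 215 and 262, with ranks of 1088, 921 and 801 in replicates 1, 2 and 3. The peak was thus among the higher ones in each list, and it is the only IDR summit of the 10 genes that ranked within the first 5047 regions of all 3 replicates, as 38.5% of all IDR peaks did. Of all genes, 9.31% had a pooled region at least as high in their territory, and 22.8% of genes with territories of 20 to 40 kb did. The nearest start site of any protein-coding gene was that of CG34283, a gene inside a ChAT intron, at 2646 bp.

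A second IDR summit of ChAT lay at 18721534 in the same intron, 16033 bp from the start and 1056 bp from the start of CG34283. Its signal value of 190 ranked 4963, only 84 ranks above the end of the IDR list. It ranked 5146 in replicate 2 and 3931 in replicate 3, and replicate 1 had no match. Below the IDR list, the territory of ChAT held 8 further pooled regions with signal values of 52.4 to 150. The highest of them lay 2127 bp from the shared start, with ranks of 6114 in replicate 2 and 3345 in replicate 3 and no match in replicate 1. Another, at 124, fell in the 3' UTR of VAChT and was matched in all 3 replicates, at ranks of 29097, 25923 and 8628. Of the other regions below the list, 1, at 71.1, in the second ChAT intron, was matched in all 3.

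The windows of 100 bases to each side of both IDR summits are shown because they carry the highest and the lowest IDR signal in the territories of the 10 genes. They are given on the plus strand of dm6, from Release 6 of the genome, and capitals mark the Sox words AACAAT and AACAAAG on either strand. These words belong to the kind of site that Sox factors are known to bind.
ChAT and VAChT, chr3R:18719844-18720044: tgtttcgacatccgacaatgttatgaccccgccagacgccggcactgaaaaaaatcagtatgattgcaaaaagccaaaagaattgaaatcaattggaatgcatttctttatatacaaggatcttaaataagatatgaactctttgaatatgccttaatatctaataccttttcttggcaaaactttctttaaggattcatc
ChAT, chr3R:18721434-18721634: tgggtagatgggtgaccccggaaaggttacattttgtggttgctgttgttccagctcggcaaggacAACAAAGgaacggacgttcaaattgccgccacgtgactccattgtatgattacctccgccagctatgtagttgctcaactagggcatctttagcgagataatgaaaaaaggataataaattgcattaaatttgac
The higher peak held neither word, and its window had a GC content of 33.8%. The lower one held AACAAAG once, from 34 to 28 bp before the summit, and had a GC content of 44.3%.

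**Figure D2:**
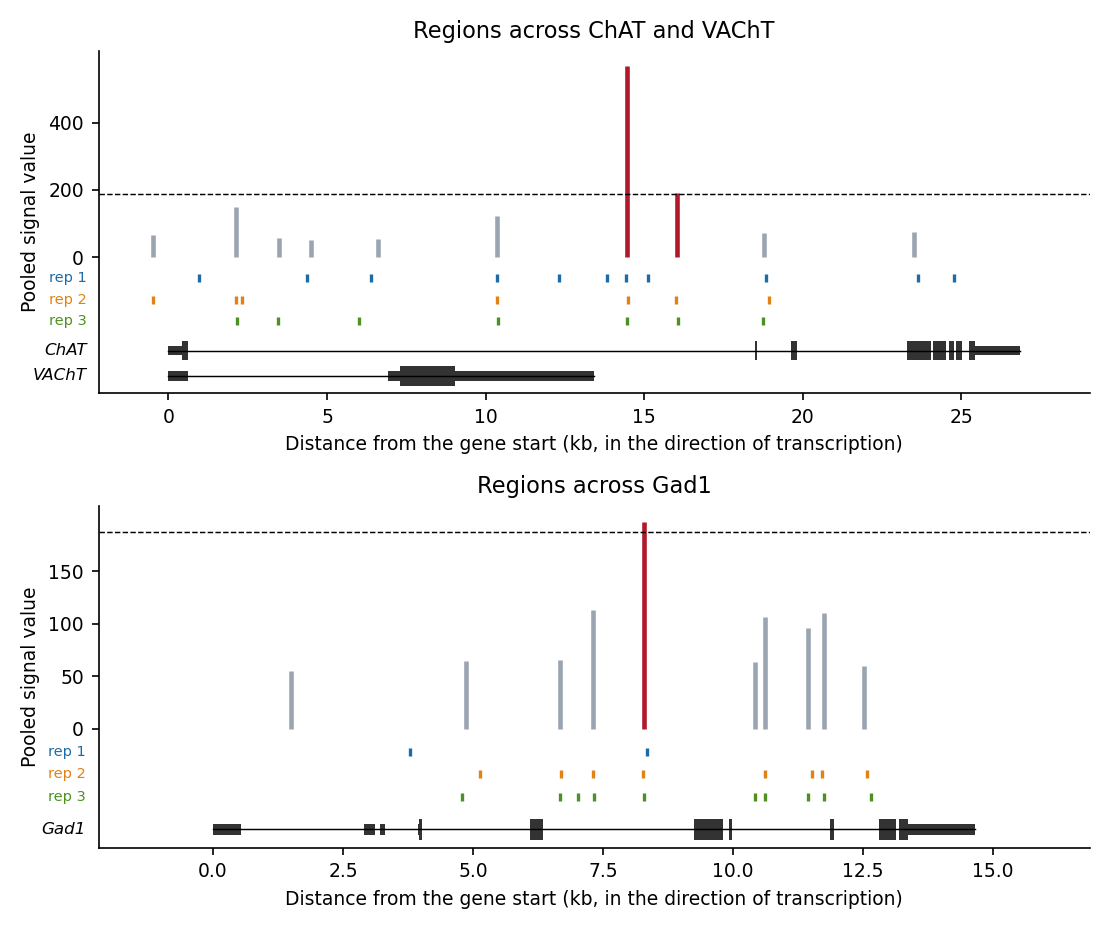
Pooled signal value (vertical lines; red, IDR peaks; grey, below the IDR list) against distance from the gene start in kb for ChAT with VAChT and for Gad1, with the lowest IDR value dashed, summits of each replicate list as ticks and exons as boxes (coding parts taller). The peak of 569 lies past the end of VAChT with a tick in every replicate row, and replicate 1 has 2 ticks over Gad1.

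Gad1 (FBgn0004516, 3L, 4074077 to 4088744, minus strand) held 1 IDR summit, at 4080458, inside an intron and 5385 bp from the nearest start site, which was its own. Its signal value of 197 ranked 4741, which is 306 ranks above the end of the list. Replicate signal values were 46.2, 62.3 and 78.2, with ranks of 3161, 6514 and 6068. The match in replicate 1 ranked higher than those in the other two, whereas at the ChAT peak the match in replicate 1 ranked lowest of the 3. Gad1 also held 9 pooled regions below the IDR list, from 55.3 to 113, all in introns, and at 5.36 per 10 kb its territory had the densest regions of the 10, against 2.24 per 10 kb over the genome. None of these 9 had a match in replicate 1, whereas 6 were matched in both other replicates. Some of the 9 overlap each other, and overlapping regions were counted separately in the densities. The window of the IDR summit is shown because it is the poorest in G and C of the 5, at 24.9%, and holds AACAAT once, 19 to 24 bp after the summit.
Gad1, chr3L:4080358-4080558: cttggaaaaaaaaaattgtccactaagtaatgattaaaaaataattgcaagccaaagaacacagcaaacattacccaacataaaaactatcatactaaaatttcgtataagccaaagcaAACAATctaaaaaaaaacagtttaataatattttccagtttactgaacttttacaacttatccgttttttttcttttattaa

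The vesicle SNARE gene nSyb (FBgn0013342, 3L, 1630348 to 1637752, minus strand) had its IDR summit outside the gene, at 1639565. This is 1813 bp upstream, beyond the neighbouring gene Mettl2 and 146 bp from a start site of Bgb, which encodes a partner of Runt-domain factors. The summit also lay in the territories of Bgb, Mettl2 and alphaCOP, and its position alone does not assign it to nSyb. The pooled signal value of 294 ranked 2723. Replicate 2 had it at 120 with a rank of 2355, replicate 3 at 58.7 with a rank of 9390, and replicate 1 had no match. Of the replicate lists, replicate 2 thus placed it far higher than the others. A second pooled region, at 64.4 in the last intron of nSyb, was matched in replicate 1 only, at a rank of 9291.

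The membrane SNARE gene Syx1A (FBgn0013343, 3R, 24101600 to 24105763, minus strand) had its IDR summit at 24106409, 646 bp upstream of its start site. No other start site lay nearer, though the position is also inside an intron of eIF4EHP, a gene of a cap-binding protein that spans Syx1A. The summit lay in the territory of the neighbouring gene CG10694 as well, so its position alone does not assign it to Syx1A. The pooled signal value of 244 ranked 3545. The replicate values were 109 at a rank of 2735 in replicate 2 and 110 at a rank of 3500 in replicate 3. Replicate 1 had no region at all in the territory of Syx1A, while replicates 2 and 3 had 8 and 6. The pooled regions at 127 and 106, both beyond the 3' end of Syx1A, and at 63.5 inside it were likewise matched in replicates 2 and 3 and not in replicate 1.

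The windows at these SNARE genes are shown since their summits are the IDR peaks nearest to a start site, that of nSyb at Bgb and that of Syx1A at its own.
nSyb, chr3L:1639465-1639665: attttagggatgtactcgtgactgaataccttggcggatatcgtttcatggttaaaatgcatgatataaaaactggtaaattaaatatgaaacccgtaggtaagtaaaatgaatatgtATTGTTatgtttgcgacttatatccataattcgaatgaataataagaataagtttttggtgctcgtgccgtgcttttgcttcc
Syx1A, chr3R:24106309-24106509: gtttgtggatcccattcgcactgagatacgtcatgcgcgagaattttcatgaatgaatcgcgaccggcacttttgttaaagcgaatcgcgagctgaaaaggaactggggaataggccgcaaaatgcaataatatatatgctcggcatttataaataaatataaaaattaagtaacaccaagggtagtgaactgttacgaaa
The nSyb window held AACAAT once on the minus strand, 18 to 23 bp after the summit in plus-strand order, with a GC content of 33.3%. The Syx1A window held neither word, with a GC content of 39.8%. Over the 5 IDR summits, 3 windows held AACAAT or AACAAAG, and all 3 matches lay within 50 bp of the summit. Of all IDR summits, 17.8% had such a word within 50 bp. The same words stood in 31.2% of all 5047 IDR windows and in 29.9% of the 24952 pooled windows below the IDR list. They stood in 25.0% of equal windows 1000 bp to either side of IDR summits and in 24.7% of those centred on protein-coding start sites. Of the 32 pooled windows below the list in the 10 territories, 10 held one. Median GC content was 34.3% in IDR windows, 40.8% below the list, 41.8% to either side and 42.3% at start sites. Whether GC content accounts for these shares was not tested. A match is a run of letters and not a mapped site, and 5 windows are too few to read as a share.

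The vesicular glutamate transporter gene VGlut (FBgn0031424, 2L, 2400295 to 2410662, plus strand) came nearest to the IDR list among the genes without a summit. Its highest pooled region had a signal value of 150 and ranked 6753. It lay in an intron, 1644 bp from a start site of VGlut. The replicate signal values were 34.5, 54.6 and 57.4, with ranks of 7630, 7980 and 9725. All 3 replicates thus held it, below their first 5047 regions. Only 10.1% of the 24952 pooled summits below the IDR list were matched in all 3 replicates. The window is shown as that of the highest region among the genes without an IDR summit, though its rank of 6753 is well past 5047. It held neither Sox word.
VGlut, chr2L:2402295-2402495: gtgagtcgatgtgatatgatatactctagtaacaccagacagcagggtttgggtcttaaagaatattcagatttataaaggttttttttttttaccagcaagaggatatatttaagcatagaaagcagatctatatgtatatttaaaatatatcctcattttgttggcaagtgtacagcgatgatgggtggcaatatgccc
A second region, at 82.6, lay 1696 bp upstream and was matched in replicates 2 and 3. The nearest IDR summit, with a signal value of 210, was 10043 bp from the gene.

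The tyrosine hydroxylase gene ple (FBgn0005626, 3L, 6713356 to 6719525, minus strand) had a single pooled region, 378 bp upstream of its start, with a signal value of 78.3. It was matched in replicate 1 at a rank of 8515 and in replicate 3 at 19207, and replicate 2 had no region in the territory. The nearest IDR summit, at 255, lay 4176 bp from the gene, outside its territory. The cpx gene (FBgn0041605, 3R, 4280221 to 4304604, plus strand), with 8 start sites, had 5 pooled regions, from 63.8 to 85.4. The highest, in a 5' UTR and 165 bp from a start site, was matched in all 3 replicates at ranks of 17046, 17600 and 27669. The nearest IDR summit was 29669 bp away, the farthest among the 10 genes. Syt1 (FBgn0004242, 2L, 2772327 to 2799979, minus strand) had regions of 60.8, at 182 bp upstream of its start, and 53.3, at 20 bp beyond its end. The first had no match in any replicate and the second was matched in replicates 2 and 3.

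The active zone gene brp (FBgn0259246, 2R, 9503765 to 9541565, plus strand) had the longest territory of the 10, at 41.8 kb, and the lowest of the highest pooled values. Its single pooled region, at 51.9, lay 1347 bp beyond the 3' end, within the neighbouring gene CG1888, and had no match within 200 bp in any replicate. Of all genes with territories over 40 kb, 93.3% had a pooled region at least as high. Yet one of the highest peaks of the whole list, with a signal value of 2754 and rank 13, lay 5646 bp from brp, nearest to a start site of CG1888.

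The replicates ordered the 10 genes differently. Ranked by the highest region in each territory, ChAT and VAChT led in all 3 replicates, with ranks of 801 to 1088, and no other gene came above rank 2355 in any replicate. In replicate 1 the next was Gad1 at 3161, followed by brp at 6765 and VGlut at 6848. In replicate 2 it was nSyb at 2355, then Syx1A at 2735 and Gad1 at 6514. In replicate 3 it was Syx1A at 3500, then Gad1 at 6068 and cpx at 8126. Below ChAT and VAChT the ranges overlap, so Gad1, nSyb and Syx1A cannot be set in an order beyond the spread of the replicates. The genes without an IDR summit never ranked above 6765.

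**Figure D3:**
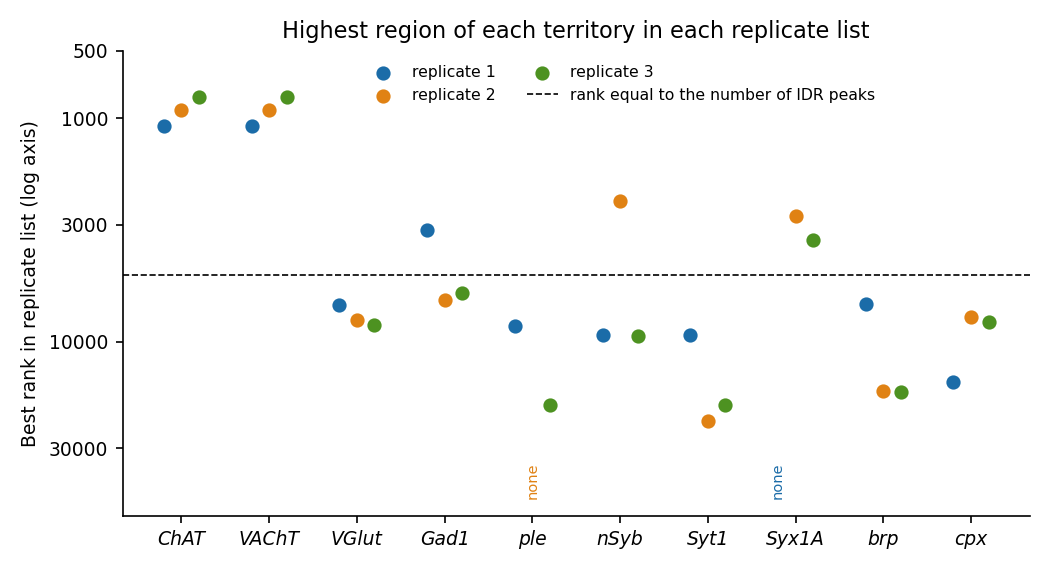
Best rank (log axis, higher is better) of any region in each territory in the lists of replicates 1, 2 and 3, with rank 5047, the number of IDR peaks, dashed and "none" where a list had no region. ChAT and VAChT lie above the line in every replicate, Syx1A in 2 of 3, Gad1 and nSyb in 1 each.

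Replicate 1 also spread its regions over other genes. It had 5 regions each in the territories of brp and Syt1 and 6 in that of ple, where replicate 2 had 1, 2 and 0 and replicate 3 had 1, 4 and 2. At Gad1 and Syx1A it had 2 and 0, against 8 and 8 in replicate 2 and 10 and 6 in replicate 3. Over all 10 territories, with VAChT counted within ChAT, the totals were 37, 33 and 40 regions. Of the 32 distinct pooled regions below the IDR list, 9 were matched in replicate 1, 19 in replicate 2 and 23 in replicate 3. Those shares, 28.1%, 59.4% and 71.9%, stand beside 29.2%, 61.6% and 64.0% for all such regions.

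Of the 37 distinct pooled regions in the 10 territories, 23 lay in introns of the gene, 7 upstream and 4 downstream. A coding exon, a 5' UTR and a 3' UTR held 1 each, with a position in ChAT and VAChT classed by ChAT. Introns thus held 62.2% of the regions and made up 52.2% of the territory sequence, a difference that was not tested. Region density over the territories was 1.89 per 10 kb, below the 2.24 of the genome. It ran from 0.24 per 10 kb at brp to 5.36 at Gad1, with 4.90 at Syx1A, 3.24 at ChAT and 1.75 at nSyb. The lowest value among genes with an IDR summit was thus that of nSyb.

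Further genes of the synapse were counted in the same way. Of 88 further genes of transmitter metabolism, release and reception, 10 or 11.4% had an IDR summit, against 30.4% of all genes. Among those with territories over 20 kb, 5 of 41 or 12.2% had one, where 62.5% of all such genes did. These counts are descriptions, with no test, since the lists were drawn up with earlier results of these data known.

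Among 16 further genes of transmitter synthesis, transport and removal, 2 had an IDR summit. These were Ddc, which makes dopamine and serotonin from their precursors, with a signal value of 208, and Tbh, the enzyme that makes octopamine, with 189. Both values lie near the end of the IDR list, and neither peak was recovered in any pair of replicates. Pu, needed for the cofactor of ple, had the third highest region, at 174, below the list. Among 33 genes of the release machinery and vesicle recycling, 5 had one, led by Tomosyn, an inhibitor of SNARE assembly, with 464, Syt12 with 388 and Syn, the vesicle protein synapsin, with 380. The peaks at Tomosyn and Syt12 lay outside the gene bodies, and those of Syn inside. Among 39 transmitter receptor genes 3 had one, namely nAChRalpha5 with 552, Nmdar1 with 362 and Nmdar2 with 291. The receptor territories were the longest, with a median of 25.4 kb.

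The whole pooled list, which includes background regions, gave other counts. At least 1 such region lay in the territory of each of the 10 genes, of 29 of the 33 release genes, of 26 of the 39 receptor genes and of 10 of the 16 transmitter genes, against 65.1% of all genes. The median of the highest pooled signal value in a territory, counted as 0 where there was none, was 173 for the 10 genes, 95.4 for release genes, 86.3 for transmitter genes and 67.0 for receptor genes. The median was 87.5 for all protein-coding genes, whose territories were shorter. A region shared by several genes counts for each of them, as the peak of 569 does for ChAT and for VAChT.

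**Figure D4:**
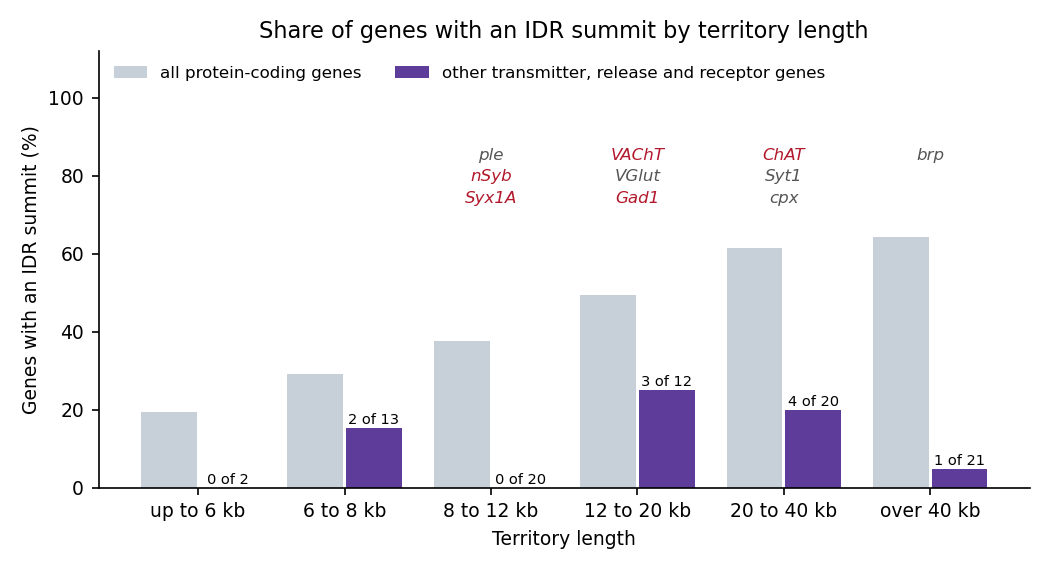
Percentage of genes with an IDR summit in their territory by territory length, for all protein-coding genes (grey bars) and for 88 other transmitter, release and receptor genes (purple bars, with counts); the 10 genes are named above their length class, red with an IDR summit and dark grey without. The grey bars rise from 19.5% to 64.2% with length and the purple bars stay at or below 25%.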

How the data were processed

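The deposited files are peak lists. Per the file lists deposited with each sample, the authors called peaks and background regions on each of the 3 replicates and on all 3 together, each against a control alignment, and made the IDR list from these. The signal value of each region (column 7) is used as deposited by the authors, on a scale not stated. The aligner, the caller and the threshold of the IDR list are not given here by any source used. Per the labels, chromatin was sonicated, with a size range of 200 to 800.

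The dm6 lists were used with Ensembl release 115 genes and RefSeq Release 6 sequence, the same assembly, over X, 2L, 2R, 3L, 3R and 4. The dm3 lists were not used here. Positions count from 1. For a peak recovered in a replicate, a summit lay within 200 bp among the 5047 highest of that list. 3 gene names were matched through synonyms. Motifs were searched on both strands within 100 bp of summits. AACAAT and AACAAAG are reported, and GAGAG and CAGGTAG, also searched, were in none of the 5 IDR windows, against 23.0% and 0.892% of all IDR windows. The members and lists were chosen with earlier results of these data known. Named genes are the members, genes with the start site nearest to a member's summit and the 3 highest of each list, and others that the text describes as neighbours were named after their values were seen. With 1 group, no test between conditions was made, and spread between replicates may be technical. Counting was tested on simulated summits. Computation used Python 3.11.15, numpy 2.4.6 and pandas 2.3.3, and matplotlib 3.10.9 drew the figures. The alternatives were other territories, thresholds, recovery rules and left-out replicates.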

Additional observations from a re-analysis of the deposited data

How the results depend on the processing

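Peaks were not called again, so a left-out replicate means that IDR peaks recovered in both others were kept. The 5 bound genes then became 2 or 3, their 5 distinct summits 1 or 2, the 2 bound transmitter genes 0, the 5 release genes 3 or 4, the 3 receptor genes 2 and the 30.4% of all genes 11.9% to 24.8%. ChAT and VAChT were bound in each of these sets, Syx1A only without replicate 1, and Gad1 and nSyb in none.

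With recovery in all 3 replicates, within 200, 100 or 500 bp, 2 members, 1 summit, 0 transmitter, 3 release and 2 receptor genes were bound, and 11.3%, 10.7% and 11.4% of all genes. With the upper 50% of IDR peaks the counts were 2 members, 1 summit, 0 transmitter, 3 release and 2 receptor genes, and 19.5% of all genes. By gene body they were 2 members (ChAT and Gad1), 3 summits, 0 transmitter, 1 release and 2 receptor genes, and 11.8%. By nearest start site they were 2 members (Gad1 and Syx1A), 3 summits, 2 transmitter, 1 release and 1 receptor genes, and 21.1%. Within 500 bp of a start site they were 0 members, 0 summits, 1 transmitter, 1 release and 0 receptor genes, and 15.3%. With 5 kb on each side they were 6 members, ple being added, 9 summits, 2 transmitter, 9 release and 5 receptor genes, and 43.7%. With the whole pooled list, background regions included, they were 10 members, 37 summits, 10 transmitter, 29 release and 26 receptor genes, and 65.1%. The cause of these changes was not tested, beyond the fewer or more peaks that each rule leaves. Windows of 50 and 150 bp to each side gave 3 and 4 summits with a Sox word, against 3. Of 60 summit counts for the 5 bound genes under these alternatives, 13 kept within 1.5 times, 9 were higher, 7 were lower but above 0 and 31 were 0. No paired analysis was possible because there was 1 group. Without depths, a missing region cannot be told from a shallow library.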
